A study of Danio rerio with 6 samples.

Results

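Neutrophils are the first white blood cells to reach a wound, and in zebrafish larvae they gather at a cut fin within hours. They kill microbes with enzymes and proteases stored in granules and with reactive oxygen made by the NADPH oxidase. Their formation depends on the cytokine G-CSF, read by the receptor Csf3r, and on transcription factors of the C/EBP family. The genes described here were chosen by name from the deposited count table, as rows whose zebrafish symbol is *mpx*, *lyz*, *npsn*, *csf3r*, *srgn*, *cebp1*, *ncf1* or *cpa5*. Of these 8 names, 6 were found, each for a single Ensembl gene ID, among 32057 genes in all. No ID carries the symbol *mpx* (myeloperoxidase) or *cpa5* (a carboxypeptidase also known from mast cells) in the table of gene names, so no value is given under these names. An ID named EPX, which may be *mpx* under another name, is described with the mast cell and eosinophil genes. The rule reads gene names only. All 6 genes passed the low-count filter, which left 19778 genes.

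The study dealt with the kinase mTOR in regrowth of the larval zebrafish tail fin. Fins were amputated at 3 dpf (days post fertilization) and the regenerated fins were collected at 24 hpa (hours post amputation). In the rapamycin group (replicates 4, 5 and 6) larvae were kept from 2 dpf in 1 µM rapamycin, a drug that blocks mTOR complex 1, and the samples are labelled with the genotype mtor inhibition. In the control group (replicates 1, 2 and 3) larvae labelled WT received the solvent DMSO. Each library was a pool of 50 fins, so a value is an average over many larvae and over all cells of the fin, and fewer neutrophils cannot be told apart from less RNA per neutrophil. Levels are given as CPM, a gene's counts relative to the total of its library, scaled between libraries by TMM.

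The libraries held 49055607 to 54162044 counts. Markers of fin epidermis and fin mesenchyme stood high in every library, with a summed level of 58808 to 72265 CPM in rapamycin and 48203 to 60511 CPM in control fins for 11 epidermal gene IDs, and of 59994 to 62551 CPM in rapamycin and 48067 to 108562 CPM in control fins for 12 mesenchymal gene IDs. The control libraries lay apart from each other. Along the leading principal component, the rapamycin libraries stood between 59.1 and 60.0, control replicate 1 at -8.84, and control replicates 2 and 3 at -77.4 and -92.4. Control replicate 1 also stood with the rapamycin libraries in the relation of a gene's deviation from its mean to its length on the chromosome, with Spearman's rho across 13355 genes of 0.158 to 0.296 in rapamycin libraries and 0.21 in control replicate 1, against -0.34 and -0.28 in control replicates 2 and 3, a description across genes, which are not independent. Results that rest on control replicate 1 are therefore given with and without it.

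None of the 6 neutrophil genes passed the test between rapamycin and control fins. The test was the quasi-likelihood test of edgeR, with p-values adjusted over all tested genes and a threshold of 0.05. Of all tested genes edgeR called 5.24%, with 1.97% higher and 3.27% lower. Before adjustment 2 of the 6 had a p under 0.05 in edgeR, *csf3r* and *cebp1*, both with a higher level in rapamycin fins, beside 23.4% of all tested genes. DESeq2 called 1, *cebp1*, where it called 1000 genes higher and 1539 lower in all. limma-voom called 0, where it called 566 genes higher and 676 lower in all. The threshold used in the study, an unadjusted p under 0.05 with a log2 fold change of 1 or more in size, was met by the same 2 genes, and by 9.48% of all tested genes (3.91% higher and 5.57% lower). The log2 fold change was above 0 for 4 genes and below 0 for 2, as it was above 0 for 50.1% of all tested genes. The median over the 6 genes was 0.34, beside 0.0014 over all tested genes. The receptor gene *csf3r* and the transcription factor gene *cebp1* had the largest fitted differences of the 6 genes and are described first. The 6 genes were not tested against each other.

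*csf3r* (ENSDARG00000045959) encodes the receptor for G-CSF, the cytokine that drives the making and release of neutrophils. It had 1.63, 2.17 and 1.44 CPM in rapamycin replicates 4 to 6, against 1.21, 0.70 and 0.41 CPM in control replicates 1 to 3. Every rapamycin library lay above every control library. These levels rest on few reads, 87, 118 and 76 counts in rapamycin and 74, 37 and 18 counts in control fins. The exact 95% Poisson interval, which covers counting error only, was 1.14 to 1.81 CPM for the lowest rapamycin library and 0.95 to 1.51 CPM for the highest control library, so the intervals of the nearest libraries of the groups overlapped. In edgeR the difference on the log2 scale was 1.17 ± 0.50 (SE), with an adjusted p of 0.197, a fold change of 2.25 with an interval of 1.03 to 4.91 that is not adjusted for the number of genes. The length of *csf3r* on the chromosome, 83019 bases, was the longest of the 6 genes, beside 2921 (*lyz*) to 13157 (*ncf1*) for the others. With the trend with gene length removed, its log2 fold change was 1.02.

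*cebp1* (ENSDARG00000101096) encodes a C/EBP transcription factor of zebrafish myeloid cells, used as a marker of developing granulocytes. It had 3.30, 3.33 and 2.49 CPM in rapamycin replicates 4 to 6, against 1.63, 0.38 and 0.34 CPM in control replicates 1 to 3. The groups did not overlap, and control replicate 1 stood between the rapamycin libraries and the other controls. The counts were 176, 181 and 131 in rapamycin and 100, 20 and 15 in control fins, and the intervals from counting of the nearest libraries, 2.08 to 2.95 CPM for rapamycin replicate 6 and 1.32 to 1.98 CPM for control replicate 1, did not meet. The log2 fold change was 1.94 (standard error 0.60), the largest of the 6 genes, and it did not pass in edgeR (adjusted p = 0.0942). DESeq2 called it (adjusted p = 0.0232) and limma-voom did not (adjusted p = 0.0548). Over the alternatives that kept all libraries, the adjusted p lay between 0.0232 and 0.167.

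Control replicate 1 was the highest control library for both genes. Leaving it out therefore had to widen both differences. The log2 fold change of *cebp1* was then 3.06 (adjusted p = 0.00118 from edgeR) and that of *csf3r* 1.64 (adjusted p = 0.0343 from edgeR), so that 2 of the 6 genes were called higher and 0 lower. In that comparison edgeR called 15.5% of 20220 tested genes higher and 15.6% lower. Without any other single library, *cebp1* had an adjusted p of 0.169 to 0.285 and *csf3r* one of 0.312 to 0.474, and 0 of the 6 genes were called. With all libraries, groups that do not overlap were found in 2 of the 6 genes with rapamycin higher and in 0 with rapamycin lower, and in 14.8% and 15.9% of all tested genes (30.7% in either direction).

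*srgn* (ENSDARG00000077069) encodes serglycin, the proteoglycan that packs enzymes into granules of neutrophils and other blood cells. It had 37.0, 52.1 and 37.1 CPM in rapamycin replicates 4 to 6, against 27.0, 39.4 and 24.1 CPM in control replicates 1 to 3. Control replicate 2 lay above rapamycin replicates 4 and 6, so the groups overlapped. The mean was 42.1 ± 8.73 CPM (SD, n = 3) in rapamycin and 30.2 ± 8.14 CPM (SD, n = 3) in control fins, and edgeR put the difference on the log2 scale at 0.48 ± 0.24 (SE) with an adjusted p of 0.263.

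**Figure D1:**
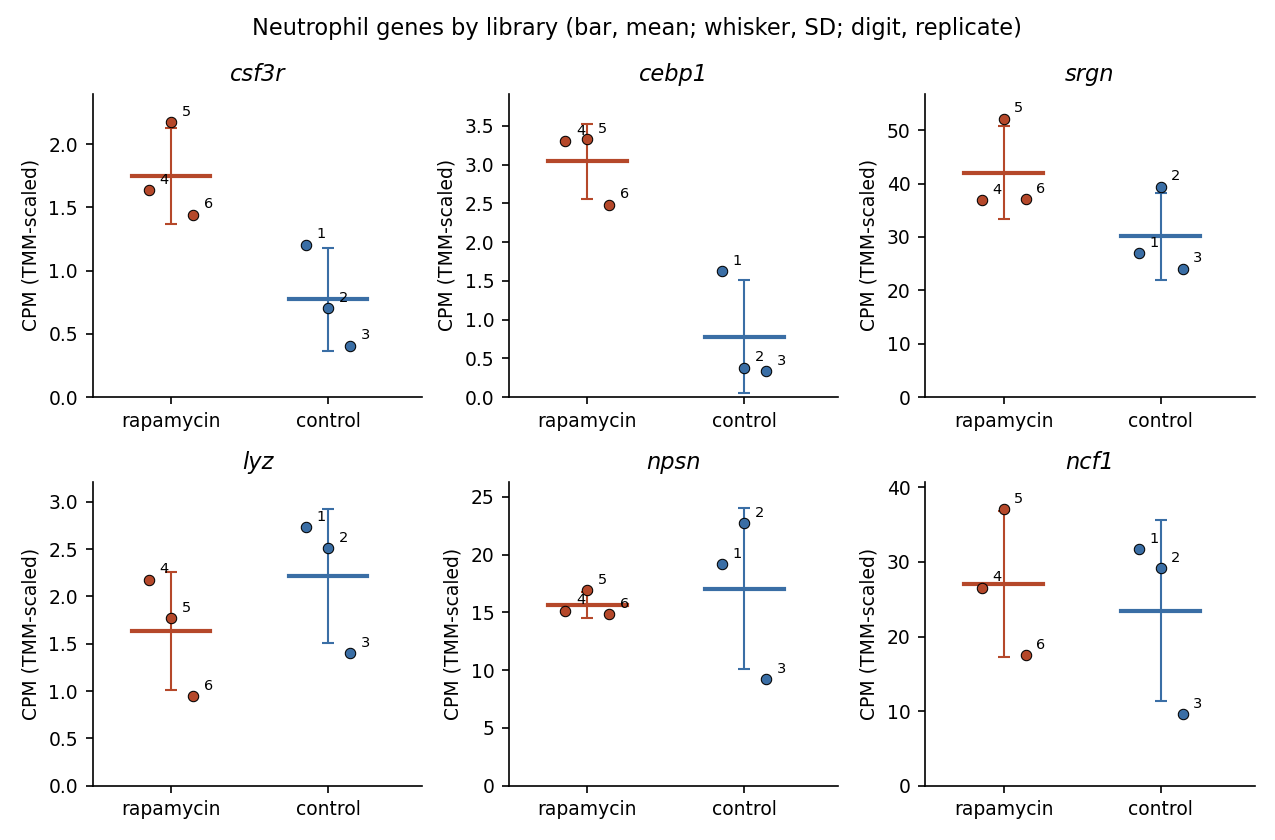
Level of each of the 6 neutrophil genes in CPM (vertical axis, scaled by TMM, from 0) in the 3 rapamycin and the 3 control libraries, with points for libraries (with their replicate number), a bar for the group mean and a whisker for the SD. Every rapamycin point lies above every control point for *csf3r* and *cebp1*, and the groups overlap for *srgn*, *lyz*, *npsn* and *ncf1*.

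The granule enzymes overlapped between the groups. *lyz* (ENSDARG00000057789) encodes lysozyme C, which breaks bacterial cell walls and whose promoter is widely used to label zebrafish neutrophils. It had 2.18, 1.77 and 0.95 CPM in rapamycin replicates 4 to 6, from 116, 96 and 50 counts, against 2.74, 2.51 and 1.40 CPM in control replicates 1 to 3, from 168, 132 and 62 counts. The lowest value was that of rapamycin replicate 6 and the highest that of control replicate 1. In edgeR the difference on the log2 scale was -0.44 ± 0.44 (SE), with an adjusted p of 0.577, and the interval of the fold change ran from 0.37 to 1.45.

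*npsn* (ENSDARG00000010423) encodes nephrosin, a metalloprotease of the astacin family found in fish granulocytes. It had 15.2, 16.9 and 14.8 CPM in rapamycin replicates 4 to 6, against 19.2, 22.7 and 9.24 CPM in control replicates 1 to 3. The rapamycin libraries lay close together, between the low control replicate 3 and the higher control replicates 1 and 2. In edgeR the difference on the log2 scale was -0.13 ± 0.31 (SE), with an adjusted p of 0.833, and the interval of the fold change ran from 0.57 to 1.48.

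*ncf1* (ENSDARG00000033735) encodes p47phox, a cytosolic subunit of the NADPH oxidase that moves to the membrane when a neutrophil is activated. It had 26.5, 37.0 and 17.5 CPM in rapamycin replicates 4 to 6, against 31.7, 29.2 and 9.55 CPM in control replicates 1 to 3. The spread within each group was wider than the difference of the means, 27.0 ± 9.80 CPM (SD, n = 3) in rapamycin and 23.5 ± 12.1 CPM (SD, n = 3) in control fins. In edgeR the difference on the log2 scale was 0.20 ± 0.42 (SE), with an adjusted p of 0.807, and the interval of the fold change ran from 0.59 to 2.23. The intervals of *lyz*, *npsn* and *ncf1* all spanned a fold of 1, and those of *lyz* and *ncf1* were the widest of the 3.

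**Figure D2:**
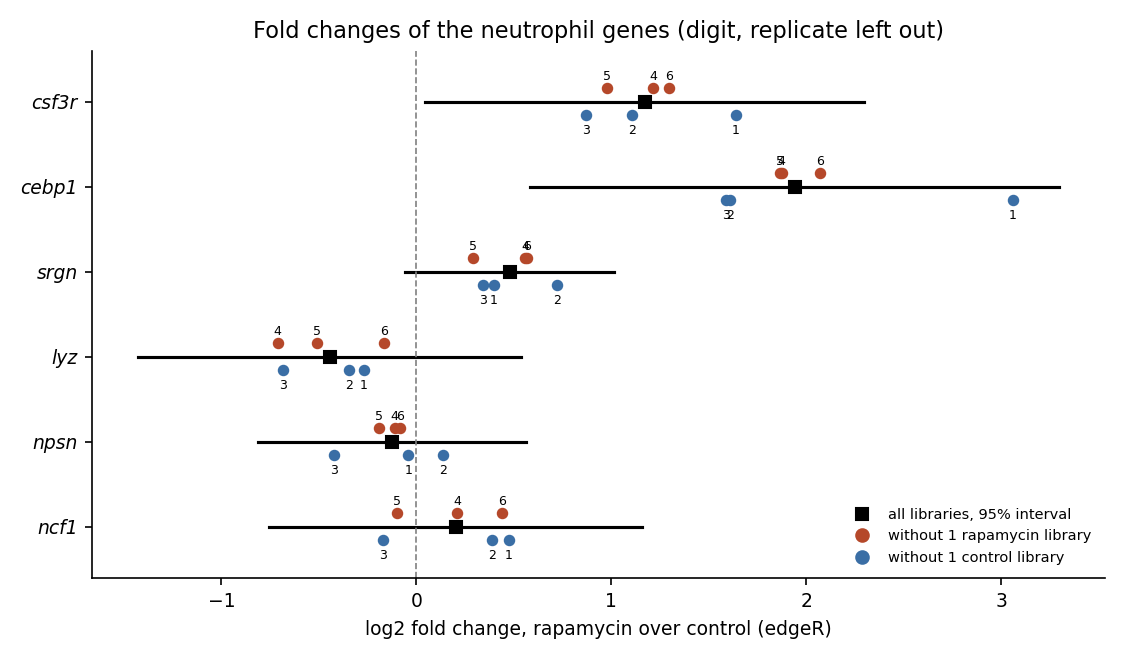
Log2 fold change of each neutrophil gene, rapamycin over control (horizontal axis, edgeR), with a square and line for the value and its unadjusted 95% interval with all libraries, and red and blue points for the values without 1 rapamycin or 1 control library, labelled with the replicate left out. The value without control replicate 1 stands far to the right for *cebp1* (3.06) and *csf3r* (1.64), and *npsn* and *ncf1* change sign when single libraries are left out.

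Within a group, the same libraries tended to be high or low for several of the 6 genes. Among the controls, replicate 3 was the lowest for all 6 genes, and for 5 of them it was the lowest of all libraries. Over all tested genes, control replicate 3 was the lowest control for 35.1%. The highest control library stood above the lowest by a ratio of 4.80 for *cebp1*, 3.32 for *ncf1*, 2.96 for *csf3r*, 2.46 for *npsn*, 1.95 for *lyz* and 1.64 for *srgn*, beside a median ratio of 1.71 over tested genes with a count in every control library. Among the rapamycin libraries, replicate 5 was the highest for 5 genes and replicate 6 the lowest for 5. The matching shares over all tested genes were not computed for the rapamycin libraries. Of 15 genes of white blood cells in general, 10 were lowest among the controls in replicate 3. Their summed level was 402, 658 and 583 CPM in control replicates 1 to 3, lowest in replicate 1. Without *arpc1b*, the most abundant of the 15, it was 201, 294 and 185 CPM, lowest in replicate 3. Leaving out *arpc1b* was not planned. Whether control replicate 3 held fewer leukocytes was not tested.

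The summed level of the 6 genes did not separate the groups. It was 85.8, 113 and 74.2 CPM in rapamycin replicates 4 to 6, against 83.5, 94.9 and 45.0 CPM in control replicates 1 to 3. The mean was 91.1 ± 20.1 CPM (SD, n = 3) in rapamycin and 74.5 ± 26.1 CPM (SD, n = 3) in control fins, a ratio of 1.22. Without control replicate 3 the log2 ratio was 0.03, beside 0.29 with all libraries. *srgn*, *ncf1* and *npsn* made up most of this sum, and without *srgn* the ratio of the means was 1.11.

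Ratios of counts within a library do not depend on how libraries are scaled. Per 100 counts of *npsn* there were 10.8, 12.8 and 9.73 counts of *csf3r* in rapamycin replicates 4 to 6, against 6.28, 3.09 and 4.41 in control replicates 1 to 3. For *cebp1* there were 21.8, 19.7 and 16.8 counts per 100 of *npsn* in rapamycin, against 8.48, 1.67 and 3.68 in control fins. The groups did not overlap in either ratio. They did not overlap when *csf3r* or *cebp1* was set against *ncf1* or *lyz* either, with *cebp1* at 12.4, 9.0 and 14.2 counts per 100 of *ncf1* in rapamycin and 5.13, 1.30 and 3.55 in control fins. All these ratios have *csf3r* or *cebp1* on top, whose CPM did not overlap between the groups by itself, so they are not separate observations. Of all tested genes 30.7% did not overlap in either direction. These pairs were formed after the values had been seen and were given no test. A ratio of this kind does not tell which gene of a pair differs.

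**Figure D3:**
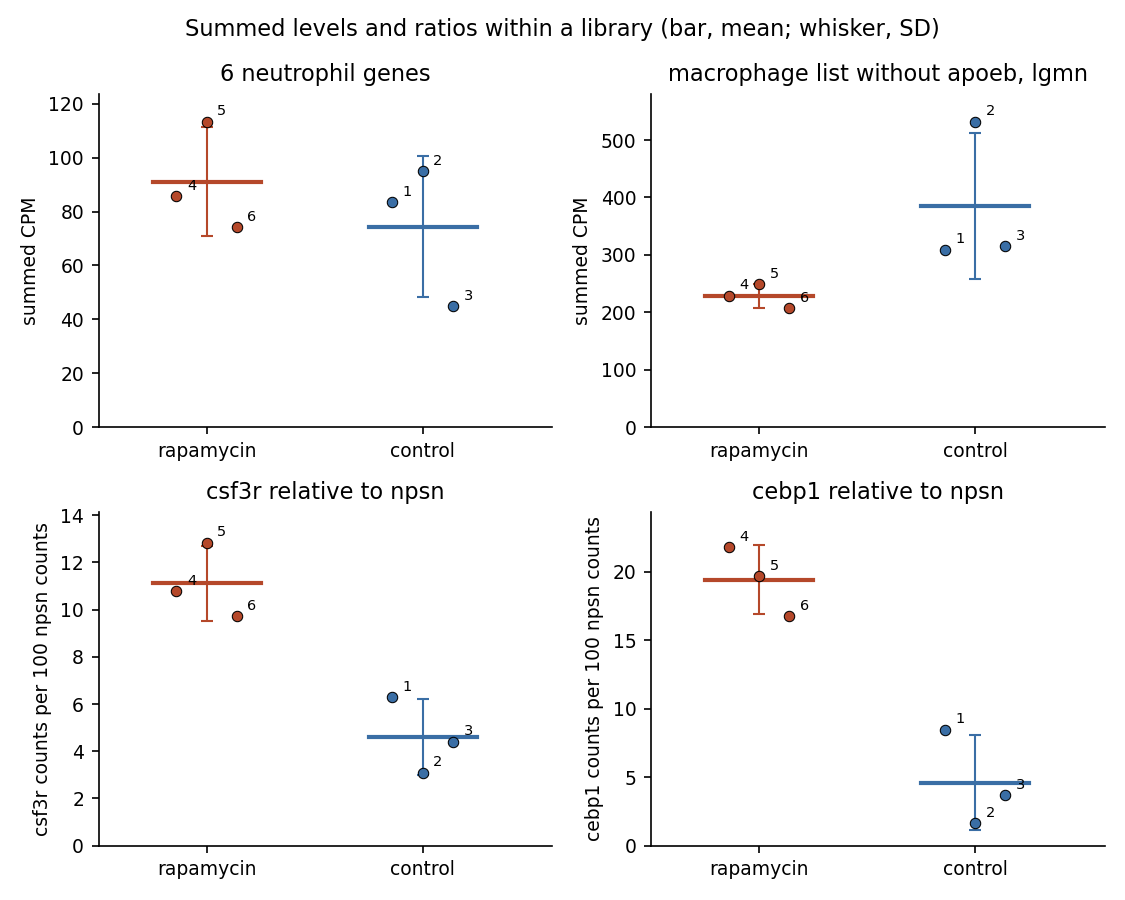
Summed CPM of the 6 neutrophil genes and of the macrophage list without *apoeb* and *lgmn* (upper panels), and counts of *csf3r* and *cebp1* per 100 counts of *npsn* (lower panels), in each library, where points carry the replicate number, bars are means and whiskers SDs. The neutrophil sum overlaps between the groups, the macrophage sum lies lower in all 3 rapamycin libraries, and both ratios lie higher in all 3.

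Genes that act around these 6 were read from lists of genes with known roles. For comparison, edgeR called 5.24% of all tested genes, and 23.4% had an unadjusted p under 0.05. DESeq2 called 1000 genes higher and 1539 lower in all, and limma-voom 566 higher and 676 lower. *csf3a* and *csf3b* encode the ligands of Csf3r, and the receptor signals through Jak2, Stat3 and Stat5. Of 7 tested genes, made up of ligand genes, Jak-Stat genes and the receptor gene *il6st*, edgeR called 0. An unadjusted p under 0.05 was found for 2, *csf3b* and *il6st*, with 1 called by DESeq2 and 0 by limma-voom. The median log2 fold change was 0.50. All 7 lay above 0, beside 50.1% of all tested genes, and the smallest value was 0.0028 (*stat5b*). *csf3b* had 75, 132 and 75 counts (1.41, 2.43 and 1.42 CPM) in rapamycin replicates 4 to 6, against 12, 22 and 35 counts (0.20, 0.42 and 0.79 CPM) in control replicates 1 to 3, with no overlap. In edgeR the difference on the log2 scale was 1.91 ± 0.60 (SE), with an adjusted p of 0.0953. Without control replicate 1 edgeR called 3 genes of this list higher, beside 15.5% of all tested genes. *csf3a* overlapped, with 0.545, 0.516 and 0.455 CPM in rapamycin and 0.684, 0.304 and 0.249 CPM in control fins. *il6st*, which encodes a signalling receptor other than Csf3r (log2 fold change 0.50, adjusted p = 0.134), and the kinase gene *jak2a* (0.13, adjusted p = 0.716) had the highest levels of the list. Neither passed in edgeR. The *csf3b* gene was singled out as the partner of *csf3r* after its values had been seen.

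Of 6 tested partners of Ncf1 in the NADPH oxidase, edgeR called 0, beside 5.24% of all tested genes. None had an unadjusted p under 0.05, beside 23.4% of all tested genes, and DESeq2 and limma-voom called 0 each. The membrane subunit gene *cybb*, also named after its values were seen, had 56.2, 51.1 and 36.9 CPM in rapamycin and 50.1, 36.8 and 12.5 CPM in control fins. Control replicate 3 was again the lowest. The GTPase genes *rac2* (-0.32, adjusted p = 0.378) and *rac1a* (-0.40, adjusted p = 0.325) had the highest levels of the list, and both are used by cells other than neutrophils. Without control replicate 1 edgeR called 2 genes of this list lower, beside 15.6% of all tested genes.

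Of 5 tested genes that attract neutrophils or receive such signals, edgeR called 0, beside 5.24% of all tested genes. An unadjusted p under 0.05 was found for 1, *cxcl18b*, beside 23.4% of all tested genes. DESeq2 and limma-voom called 0 of the list. The chemokine gene *cxcl18b*, named for its high level in the list, had 17.4, 27.9 and 30.3 CPM in rapamycin and 11.6, 11.4 and 19.0 CPM in control fins, with 0.85 on the log2 scale in edgeR (adjusted p = 0.115). *lta4h*, which makes the lipid attractant leukotriene B4, differed by -0.33 on the log2 scale in edgeR (adjusted p = 0.360). *cxcl8b.3* was listed at 0 counts in all 6 libraries. The name *cxcr1* stands for 2 IDs, both under the filter.

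Of 10 tested myeloid transcription factor genes, *gfi1aa* fell and 9 did not pass in edgeR, which called 3.27% of all tested genes lower. *gfi1aa* encodes a repressor of the Gfi1 family, which acts in blood cell formation. It had 4.56, 4.22 and 4.35 CPM in rapamycin replicates 4 to 6, against 9.54, 9.49 and 9.60 CPM in control replicates 1 to 3, and edgeR put the difference on the log2 scale at -1.12 ± 0.23 (SE) with an adjusted p of 0.0263. Without control replicate 1 edgeR called 1 gene of this list lower and 1 higher, beside 15.6% and 15.5% of all tested genes. Without control replicate 3 it called 1 lower, and without any other single library 0. *cebpd* (-0.43, adjusted p = 0.535) and *cebpa* (0.07, adjusted p = 0.890), of the same C/EBP family as *cebp1*, had the highest levels of the list and did not pass in edgeR.

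Of 14 further genes known from zebrafish neutrophils, 2 rose and 12 did not pass in edgeR, which called 1.97% of all tested genes higher. The median log2 fold change of the list was 0.56. DESeq2 called 6 of the list higher and limma-voom 3, where they called 1000 and 566 genes higher in all. *il6r*, the receptor subunit for interleukin 6, had 34.7, 41.1 and 21.6 CPM in rapamycin replicates 4 to 6, against 13.7, 14.5 and 8.63 CPM in control replicates 1 to 3. In edgeR the difference on the log2 scale was 1.40 ± 0.29 (SE), with an adjusted p of 0.0289. *mmp13a*, a collagenase, had 52.9, 69.6 and 48.2 CPM in rapamycin and 20.2, 33.1 and 17.6 CPM in control fins, and edgeR put the difference on the log2 scale at 1.27 ± 0.27 (SE) with an adjusted p of 0.0298. Neither gene overlapped between the groups. Of the 14 genes, 7 lay higher in every rapamycin library and 0 lower, beside 14.8% and 15.9% of all tested genes. Without control replicate 1 edgeR called 7 of the list higher and 1 lower, beside 15.5% and 15.6% of all tested genes. Without control replicate 2 it called 1 higher, and without each of the other 4 libraries 0. The list also holds genes that wound epidermis or other cells use, such as *mmp13a*, the survival gene *mcl1a* (-0.44, adjusted p = 0.282) and the actin regulator *cfl1l* (-0.18, adjusted p = 0.572). *cfl1l* and *mcl1a* had the highest levels of the list.

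**Figure D4:**
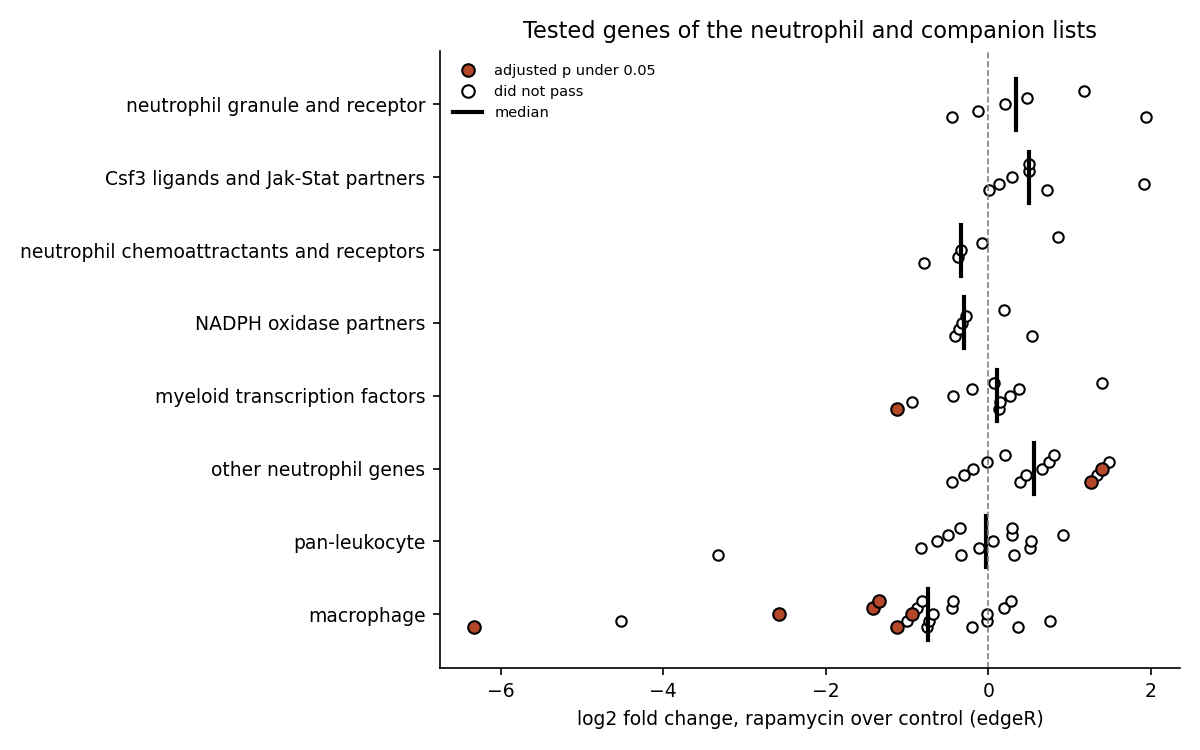
Log2 fold change, rapamycin over control (horizontal axis, edgeR), of every tested gene in the neutrophil list and 7 companion lists (rows, with points shifted vertically only to show them apart), filled where it passed at an adjusted p under 0.05 and open where it did not, with a thick line at the median of the list. None of the 6 neutrophil genes is filled, while 6 macrophage genes are filled on the left, where the leftmost, *c1qa*, rests on 0, 4 and 0 counts in rapamycin libraries.

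Genes of other cell types were read beside the neutrophil genes. Of 14 tested genes shared by white blood cells, edgeR called 0, beside 5.24% of all tested genes. An unadjusted p under 0.05 was found for 2 of the 14, beside 23.4% of all tested genes. DESeq2 and limma-voom called 0 of the list. The median log2 fold change was -0.03. Its most abundant genes were *arpc1b* (-0.63, adjusted p = 0.169), which other cells also use for actin branching, and *lcp1* (0.31, adjusted p = 0.469), the leukocyte actin bundler. The summed level of the list was 475, 516 and 381 CPM in rapamycin and 402, 658 and 583 CPM in control fins. Without *arpc1b* it was 271, 293 and 188 CPM in rapamycin and 201, 294 and 185 CPM in control fins. The 6 neutrophil genes together stood at 0.32, 0.39 and 0.40 of that sum in rapamycin and 0.42, 0.32 and 0.24 in control fins, so the groups overlapped.

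Macrophage genes were read in the same libraries. Of 22 tested gene IDs of the macrophage list 6 fell, 0 rose and 16 did not pass in edgeR. Of all tested genes edgeR called 3.27% lower and 1.97% higher. The median log2 fold change of the list was -0.75. DESeq2 called 9 of the list lower and limma-voom 6, where they called 1539 and 676 genes lower in all. The complement gene *c1qa* had 0, 4 and 0 counts in rapamycin replicates 4 to 6, against 102, 136 and 102 counts in control replicates 1 to 3 (adjusted p = 0.0101 from edgeR). The cathepsin gene *ctss2.2* (-1.42, adjusted p = 0.0150), *havcr1* (-1.35, adjusted p = 0.0242) and the complement gene *c1qb* (-2.57, adjusted p = 0.0254) fell as well in edgeR. The list was not uniform. Of the 22 tested IDs, 18 lay below 0 and 4 above 0. In every rapamycin library 12 were lower and 1 was higher, beside 15.9% and 14.8% of all tested genes. The 1 higher was the receptor gene *csf1ra*, named after its values were seen. Its levels were 27.7, 26.7 and 24.2 CPM in rapamycin and 20.9, 17.0 and 8.51 CPM in control fins. With 0.76 on the log2 scale it did not pass in edgeR (adjusted p = 0.168). *apoeb* (-0.44, adjusted p = 0.402) and *lgmn* (-0.45, adjusted p = 0.223) had the highest levels of the list and are used by many cells. Without control replicate 1 edgeR called 13 of the list lower and 1 higher, beside 15.6% and 15.5% of all tested genes. The count lower was 4 without control replicate 3, 0 without control replicate 2, and 1 or 2 without a rapamycin library. The part of macrophage content in the neutrophil values was not tested.

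The summed level of the macrophage list without *apoeb* and *lgmn*, taken out after their levels had been seen, was 229, 249 and 207 CPM in rapamycin replicates 4 to 6, against 309, 532 and 315 CPM in control replicates 1 to 3. The 6 neutrophil genes stood at 0.37, 0.46 and 0.36 of that sum in rapamycin and at 0.27, 0.18 and 0.14 in control fins, without overlap and with no test. The full macrophage list, of which *apoeb* is the larger part, summed to 13579 to 15232 CPM in rapamycin and 11151 to 24866 CPM in control fins. The name MFAP4 stands for 8 IDs and CMKLR1 for 3, and reads shared between such copies are not told apart here.

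For mast cells and eosinophils, which share some granule genes with neutrophils, 3 of 7 names were found. An ID named EPX (ENSDARG00000019521), the name of eosinophil peroxidase, a relative of myeloperoxidase, had 40.3, 38.4 and 26.2 CPM in rapamycin and 40.2, 32.1 and 12.9 CPM in control fins (log2 fold change 0.30, adjusted p = 0.658 from edgeR). The name table does not tell whether this ID is zebrafish *mpx* under a name in human style, so the value is given for the ID alone. Control replicate 3 was the lowest here too. The second ID of that name was listed at 0 counts in all 6 libraries. *kitb* differed by -1.66 on the log2 scale in edgeR (adjusted p = 0.161). Over the lists for mast cells and eosinophils, lymphocytes, thrombocytes, endothelium, muscle and RNA stress, edgeR called 0 of 25 tested genes, beside 5.24% of all. An unadjusted p under 0.05 was found for 9 of the 25, beside 23.4% of all tested genes. DESeq2 called 5 of the 25, where it called 1000 genes higher and 1539 lower in all. limma-voom called 1, where it called 566 genes higher and 676 lower in all. The summed levels of the thrombocyte and lymphocyte lists lay higher in every rapamycin library, that of the muscle list lay lower, and the others overlapped. The largest part of the lymphocyte sum was *tcf7*, with a mean of 19.4 CPM in rapamycin and 9.72 CPM in control fins. Of the 7 tested lymphocyte genes, only *tcf7* had a log2 fold change above 0. The other 6 lay below 0, and the median of the list was -0.40. The T cell gene *cd8a*, the B cell gene *pax5*, the thrombocyte gene *itga2b* and the globin gene *hbbe3* were listed at 0 counts in all libraries.

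Of 4 tested erythrocyte genes 2 fell in edgeR, the larval globin genes *hbae3* (-2.10, adjusted p = 0.00761) and *hbae1.1* (-1.38, adjusted p = 0.0176), and the summed level of the list was 21.7 to 37.3 CPM in rapamycin and 85.0 to 105 CPM in control fins. Blood carries neutrophils together with red cells. The thrombocyte sum went the other way, at 13.1 to 15.6 CPM in rapamycin and 5.89 to 7.98 CPM in control fins. That sum rests mainly on the 2 tested genes of its list, neither called by edgeR. These were *f5* (mean 8.85 CPM in rapamycin, 5.18 CPM in control fins) and *gp1bb* (4.94 and 1.67 CPM). The marker *itga2b* was at 0 counts, and *mpl* and *gp9* were under the filter. The part of blood content in the neutrophil values was not tested. Of 11 tested epidermal genes *cyt1l* (0.90, adjusted p = 0.0351) and *cdh1* (1.01, adjusted p = 0.0414) rose in edgeR. Of 12 tested mesenchymal gene IDs *twist1b* rose in edgeR (1.15, adjusted p = 0.0130). With all libraries edgeR called 1.97% of all tested genes higher and 3.27% lower. Without rapamycin replicate 5 edgeR called 0 of the erythrocyte genes. The epidermal calls fell to 0 without any single library other than control replicate 1, as did the mesenchymal call, except that it stood at 1 without control replicate 3. Without control replicate 1 edgeR called 4 epidermal genes higher and 1 lower, and 5 mesenchymal gene IDs higher and 3 lower. In that comparison 15.5% of all tested genes were called higher and 15.6% lower.

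The genes whose pattern over the 6 libraries came closest to that of *srgn* and *csf3r* were found among 13846 and 13847 named genes with a mean log2 CPM of at least 1. Likeness was the root mean square distance between log2 CPM values centred on each gene's mean. For *srgn*, the most abundant of the 6 genes in CPM, they were an ID named SLC16A12 (ENSDARG00000089885) at 0.085, *si:busm1-105l16.2* at 0.085, *cyp2u1* at 0.098, *ogfod1* at 0.10 and *znf1010* at 0.10, where *srgn* itself deviated from its mean by 0.37. For *csf3r*, which deviated by 0.77, they were *fryb* at 0.11, *khnyn* at 0.12, an ID named PTPRG (ENSDARG00000045006) at 0.13, *prdm4* at 0.14 and *si:dkey-238k10.1* at 0.14. None of these genes is on a list used here.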

How the data were processed

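SMARTer cDNA libraries of 6 fin pools (3 rapamycin, 3 control) were used. The authors deposited whole-number counts per Ensembl zebrafish gene, with no normalization, made from paired-end reads of fragmented, PCR-amplified cDNA. The aligner, counting tool, annotation and strand setting were not given in the sources used here. In the submitters' processing notes stands the build mm10, while all gene IDs are zebrafish IDs. Gene symbols came from a table of gene names (28988 IDs matched), and capitals were put in lower case where 1 ID had the name and RefSeq lists it for zebrafish. Gene lengths on the chromosome came from RefSeq GRCz12tu by symbol (67.5% of tested genes). Protein and promoter sequences and coding lengths were not used here, so levels are not compared between genes per length.

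The tests used edgeR 4.0.16 under R 4.3.3 (filterByExpr, TMM with factors of 0.901 to 1.14, robust quasi-likelihood test, no covariate, Benjamini-Hochberg adjustment over 19778 genes, called at 0.05), with DESeq2 1.42.0 and limma-voom (limma 3.58.1) as alternatives. The test was tested on simulated data. Each standard error is the log2 fold change divided by the root of F. The depth of 49055607 to 54162044 counts makes 1 count worth 0.0163 to 0.0226 CPM. PCR copies are counted as reads, so intervals from counts cover counting error only. The rule for naming genes took the 6 found and the 5 nearest patterns of *srgn* and *csf3r*. For each of 16 companion lists it took up to 4 genes that passed, the 2 with the highest mean CPM and defining markers at 0. For the lists of lymphocytes, endothelium, muscle, RNA stress, epidermis and mesenchyme, not every gene with the highest mean CPM is named. Some other genes were named after their values had been seen. The members and lists were chosen with earlier results of these data known. Alternatives were other scalings, other filters, DESeq2, limma-voom, the study's threshold (unadjusted p under 0.05 and a log2 fold change of 1 or more in size), removal of the trend with gene length on the chromosome, and leaving out each library. No batch or date is given in the labels.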

Additional observations from a re-analysis of the deposited data

How the results depend on the processing

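No paired analysis was possible because the groups share no replicate number. At the study's threshold *csf3r* (1.17) and *cebp1* (1.94) passed, so 2 of the 6 genes were called higher, with 3.91% of all tested genes higher and 5.57% lower, and 8 companion genes were called higher and 15 lower, where the adjusted threshold gave 5 and 9. DESeq2 called *cebp1* (1.94), 1 of the 6 genes, and 15 companion genes higher and 17 lower, among 1000 genes higher and 1539 lower in all, against 390 and 647 in edgeR. Companion genes called higher were 9 with limma-voom, among 566 genes higher in all. They were 11 with the trend with gene length removed, for which no count over all genes is given here. That removal turned *npsn* to 0.11, moved *srgn* to 0.75 (adjusted p = 0.0683) and left *csf3r* at 1.02 and *cebp1* at 2.07, with no call. It was run on the 67.5% of tested genes with a known length, all 6 neutrophil genes among them. The cause of these shifts was not tested. Leaving out single libraries, the log2 fold change lay between 1.59 and 3.06 for *cebp1*, 0.87 and 1.64 for *csf3r*, 0.29 and 0.72 for *srgn*, -0.71 and -0.17 for *lyz*, -0.42 and 0.14 for *npsn*, and -0.17 and 0.47 for *ncf1*, where *npsn* turned without control replicate 2 (0.14) and *ncf1* without control replicate 3 (-0.17) and without rapamycin replicate 5 (-0.10). The neutrophil genes called higher were 0 to 2, companion genes called higher 0 to 25 and lower 1 to 26. The upper ends came from leaving out control replicate 1, where edgeR called 15.5% of all tested genes higher and 15.6% lower. Without any other single library, 0 neutrophil genes and 0 to 2 companion genes were called higher, among 47 to 332 genes in all. Companion genes called lower were then 1 to 8, among 65 to 474 in all. The log2 ratio of the summed level was 0.03 to 0.50 over all 6 removals. The other scalings and filters changed no call or sign of the 6 genes. The median log2 fold change of all tested genes stayed within 0.1 of 0 in every setting run. The sum without *cpa5* was not run, since no ID carries that name, and leaving out *srgn* was added after the data were seen.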
